A study of Mus musculus with 6 samples.

Results

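Integrins are the receptors through which a cell holds the matrix around it, and the focal adhesion core is the set of cytoplasmic proteins that tie them to actin. The genes described here are 41 mouse genes of that kind, 26 integrin subunits and 15 adaptors and linkers. They were chosen by name, from probe sets that carry a single annotated gene symbol: every alpha subunit gene (Itga), every numbered beta subunit gene (Itgb), and a list of talins, kindlins, parvins, LIM-domain scaffolds and related plaque genes. A gene with several probe sets was read from the one with the highest mean. The 41 are among 19938 genes so named on the array. The list also held Ptk2, the gene of focal adhesion kinase, which was not analysed here because no probe set carried it as the single symbol.

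An integrin is a heterodimer of an alpha and a beta chain, and the pairing decides which matrix protein is bound. Talin and kindlin bind the beta tail and activate the receptor. A complex of integrin-linked kinase, a PINCH adaptor (Lims1, Lims2) and a parvin, together with paxillin, p130Cas, vinculin, zyxin and tensin, then links it to actin and to signalling. In heart muscle these proteins also form the costamere, which couples the contractile apparatus to the basement membrane.

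The cells were cardiomyocytes of mouse embryos at E12.5, sorted as green fluorescent cells from enzyme-digested individual hearts. The embryos came from matings of TNTCre, Yap flox and R26 mTmG strains. TNTCre drives Cre recombinase from the cardiac troponin T promoter and R26 mTmG turns cells green after Cre has acted, so controls and knockouts alike carried Cre and the reporter. The series compares Yap HET embryos, 3 arrays, with Yap KO embryos, 3 arrays, which are described as biological replicates. The question in the series title is how Yap, the effector of the Hippo pathway, is linked to PI3K-AKT signalling in cardiomyocyte growth and survival. The sources used here do not state whether hearts were pooled or which embryos were littermates. They also do not state how completely Cre had acted in the sorted cells.

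The deposited values are Affymetrix intensities on a linear scale, with array medians from 128 to 139.6. Each change is the log2 level in Yap KO less that in Yap HET, given with its SE, the standard error, and a gene is said to have risen or fallen where its adjusted p was under 0.05. These p-values come from limma, a moderated linear model, adjusted by the Benjamini-Hochberg method over the 13632 genes above a dimness filter at an intensity of 85.7. Yap1 itself read 871 to 927 in Yap HET and 84.7 to 103 in Yap KO. All 12 cardiomyocyte markers listed, such as the troponin gene Tnnt2 and the myosin gene Myh6, were above the filter. Nppa, the natriuretic peptide gene, rose by 0.19 ± 0.05 (limma adjusted p = 0.0487), and 0 fell. At an unadjusted limma p under 0.05, 1 was higher and 2 were lower, Nkx2-5 (-0.18) and Tnni1 (-0.13). Over all genes tested these shares were 13.9% and 14.4%. The summed intensity of the 12 was 77457 to 78369.7 in Yap HET and 76513 to 79076 in Yap KO. Precision is limited by there being 3 arrays a group. In sorted populations such as these, fewer cells of a kind and less RNA per cell cannot be told apart.

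The sorted Yap KO cells had more transcript of several integrin subunits, and among the adaptor genes 1 passed the test, with lower transcript. Of 34 members above the filter, 6 rose and 2 fell. Of all genes tested, 5.16% rose and 4.76% fell, and 9.93% did either. Of all called genes 52.0% were higher in Yap KO, and 75.7% were higher after each array was centred on its median, where the members stood at 7 higher and 2 lower. The 6 that rose were all integrin subunits: Itgav, Itgb3, Itgb5, Itga4, Itga9 and Itga6. The 2 that fell were Itga3, another laminin receptor subunit, and Lims2, a PINCH adaptor. By class, 6 rose and 1 fell among 19 integrin subunits tested, and 0 rose and 1 fell among 15 adaptors and linkers. At an unadjusted limma p under 0.05, 2 of 15 adaptors were higher and 6 lower, as were 13.9% and 14.4% of all genes tested. At the same p 9 of 19 integrin subunits were higher and 2 lower. Whether the 2 classes differ was not tested. The median log2 change was 0.08 over the integrin subunits and -0.03 over the adaptors, against -0.02 over all genes tested.

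**Figure D1:**
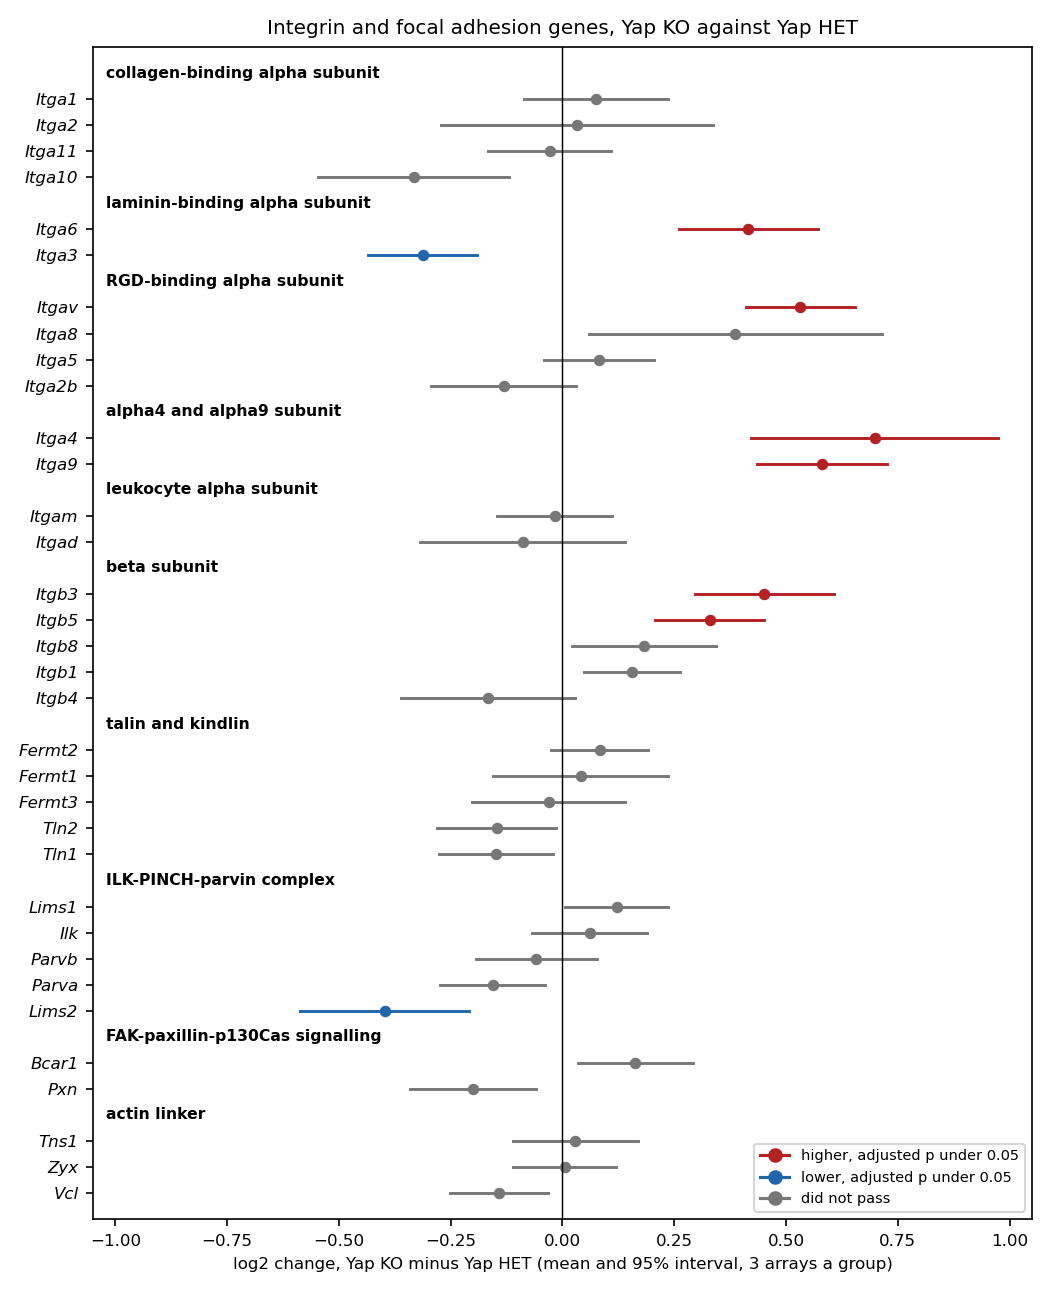
Log2 change (Yap KO minus Yap HET, horizontal axis) of the 34 members above the filter, grouped by role, as the limma estimate with its 95% interval from 3 arrays a group. The 6 genes that rose, in red, are integrin subunits between 0.33 and 0.70, and Itga3 and Lims2, in blue, stand at -0.31 and -0.40.

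The gene of the alpha-v subunit and the genes of 2 of its beta partners rose. Itgav, which encodes the alpha-v chain of receptors for vitronectin, fibronectin and latent TGF-beta, read 961, 1019.9 and 1011 on the Yap HET arrays. It read 1463, 1475 and 1388 on the Yap KO arrays. The lowest Yap KO value lay well above the highest Yap HET value, and the log2 change was 0.53 ± 0.05 (SE), a 1.45-fold higher level (limma adjusted p = 0.00238). Itgb3, the beta chain of the vitronectin receptor, also found on platelets with Itga2b, read 257, 286 and 247 in Yap HET and 368, 367 and 345 in Yap KO. The groups did not overlap, and the change was 0.45 ± 0.07 (limma adjusted p = 0.00812). Itgb5, a partner of alpha-v alone, read 1437, 1506 and 1469 in Yap HET and 1877, 1899.8 and 1767 in Yap KO. It rose by 0.33 ± 0.05, a 1.26-fold difference without overlap (limma adjusted p = 0.0105). Itgb8, an alpha-v partner known for activating latent TGF-beta, did not pass. It read 313, 342 and 298 against 372, 337 and 370.3, with 1 Yap KO array inside the Yap HET range (0.18 ± 0.07, limma adjusted p = 0.136). Itgb6, the alpha-v partner of epithelia, lay under the filter on every array, at 37.8 to 48.1 in Yap HET and 35.7 to 36.9 in Yap KO.

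Both subunits of the alpha4 and alpha9 subfamily rose. Itga4, whose receptor binds VCAM1 and fibronectin, read 142, 165 and 119 in Yap HET and 233, 207 and 246 in Yap KO. Its values scatter more than those of the brighter probe sets, yet the groups are apart (0.70 ± 0.12, 1.62-fold, limma adjusted p = 0.013). Itga9, a receptor chain for tenascin-C and osteopontin, read 508, 525 and 489.7 in Yap HET and 793, 782 and 704 in Yap KO. This was a log2 change of 0.58 ± 0.06, without overlap between the groups (limma adjusted p = 0.00293).

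The laminin receptor chains moved in opposite directions. Itga6 read 2657, 2609 and 2799.9 in Yap HET and 3557, 3886 and 3336 in Yap KO. All Yap KO values were above all Yap HET values, a log2 change of 0.42 ± 0.07 (1.33-fold, limma adjusted p = 0.0111). Itga3 read 339, 368 and 349 in Yap HET and 286, 287 and 276 in Yap KO. It fell by 0.31 ± 0.05 on the log2 scale, again without overlap, a 1.24-fold lower level (limma adjusted p = 0.0125). Itga7, the laminin receptor chain of differentiated muscle, had a mean under the filter and was not tested, at 76.8 to 90.7 in Yap HET and 53.0 to 81.0 in Yap KO. Itgb4, the partner of alpha6 in epithelia, read 141, 120.3 and 151 against 118, 126 and 121, with overlapping groups (-0.17 ± 0.08, limma adjusted p = 0.24).

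**Figure D2:**
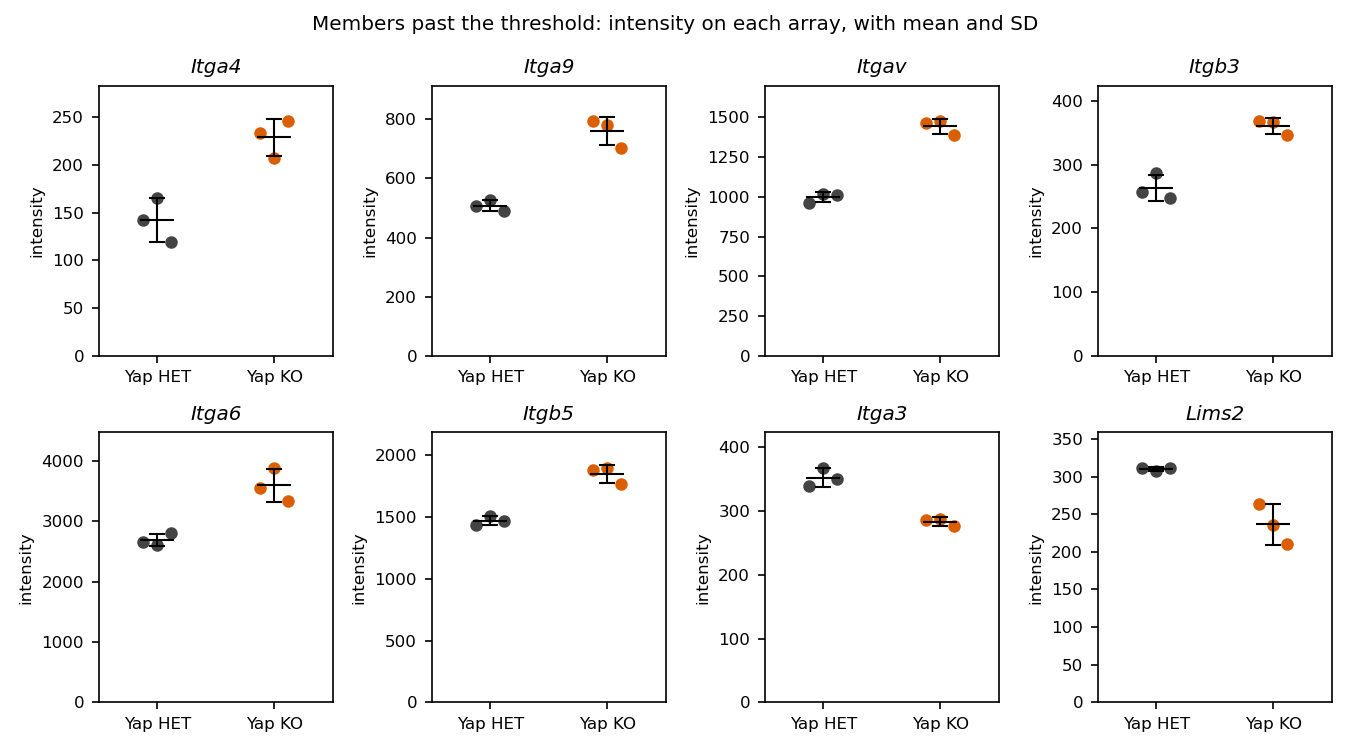
Intensity (linear scale from 0) of the 8 members past the threshold on each of the 6 arrays, as points, with the group mean and SD as bars. In each of the 8 panels the 3 Yap KO points lie apart from the 3 Yap HET points, above for 6 genes and below for Itga3 and Lims2.

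Itgb1, the common beta chain of most integrins outside blood cells, did not pass. It read 3539, 3422 and 3503 in Yap HET and 3831, 3927 and 3899 in Yap KO. The groups did not overlap and the log2 change was 0.16 ± 0.05, with an interval from 0.05 to 0.26 (limma adjusted p = 0.0755). It passed where the filter was set at the 60th percentile and with a trended prior. Itga5, whose chain with beta1 is the classical fibronectin receptor, read 2109, 2159.8 and 2039 against 2249, 2299.9 and 2128. The groups overlapped, and the change was 0.08 ± 0.05, with an interval from -0.04 to 0.21 (limma adjusted p = 0.356). Itga8, the nephronectin receptor chain, was scattered in Yap KO, at 192, 139.8 and 203 against 139.6, 146 and 119.6 (0.39 ± 0.14, limma adjusted p = 0.123). Without Yap KO replicate 2, the array at 139.8, it passed the threshold, as it did with each array centred on its median.

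Collagen receptor chains showed no call in either direction. Itga1, the collagen receptor chain of many mesodermal cells, read 1360.5, 1176 and 1161 in Yap HET and 1306, 1307 and 1270.5 in Yap KO. All Yap KO values lay inside the Yap HET range (0.07 ± 0.07, interval -0.09 to 0.24). Itga10, best known from cartilage, read 96.6 to 123 in Yap HET and 81.1 to 85.8 in Yap KO. These groups did not overlap, but the gene did not pass the threshold (limma adjusted p = 0.0621). Its Yap KO mean of 84.2 lay under the filter level of 85.7. Itga10 was thus tested only through its Yap HET values, so no size of change is given. Its adjusted p passed the threshold without Yap HET replicate 2. Itga2 and Itga11 had overlapping groups and changes of 0.03 ± 0.13 and -0.03 ± 0.06. Of 4 collagen receptor chains, 0 passed. At an unadjusted limma p under 0.05, 0 were higher and 1, Itga10, was lower, against 13.9% and 14.4% of all genes tested.

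Of the 3 tested subunits grouped here with blood cells, Itgam, Itgad and Itga2b, 0 passed the threshold. At an unadjusted limma p under 0.05, 0 were higher and 0 lower, against 13.9% and 14.4% of all genes tested. Itgb3, the platelet partner of Itga2b, and Itga4 are described above with other classes, and both rose. The leukocyte chains Itgal, Itgae, Itgax, Itgb2 and Itgb7 all read under the filter on every array, between 43.2 and 78.2. Itgam, the Mac-1 chain of myeloid cells, read 159 to 173 over the 6 arrays, with overlapping groups (-0.02 ± 0.06). Itgad read 220.2 to 286 on the probe set used and 79.9 to 96.6 on its second probe set, and neither separated the groups clearly enough to pass. Itga2b, the platelet chain, read 90.4 to 97.2 in Yap HET and 77.5 to 90.9 in Yap KO, with overlapping groups (limma adjusted p = 0.26). Its Yap KO mean of 85.1 lay under the filter level of 85.7. Itga2b, like Itga10, was thus tested only through its Yap HET values, so no size of change is given. The kindlin of blood cells, Fermt3, read 82.3 to 97.7.

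Of 7 members left out by the filter, Itga7, Itgae, Itgal, Itgax, Itgb2, Itgb6 and Itgb7, the largest single reading was 90.7. A member that passed only through its brighter group, such as Itga10, had to differ, so counts over the 34 do not describe all 41. Over those 34, 10 had all Yap KO values above all Yap HET values and 8 had them below. Over all genes tested, the shares were 16.7% and 17.2%. The other 16 members had overlapping groups.

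The calls depend on single arrays to different degrees. Itgav, Itga9 and Itgb3 passed the threshold whichever of the 6 arrays was left out. Without Yap HET replicate 1, the count of 6 became 3, as Itga4 (adjusted p = 0.0522), Itga6 (0.0523) and Itgb5 (0.055) no longer passed. Itgb5 also missed without Yap KO replicate 2 (0.0534), as did Itga3 (0.0513). Lims2 lost its call when Yap HET replicate 1 or 3 or Yap KO replicate 2 or 3 was left out, with adjusted p between 0.0514 and 0.0917. The 2 falls then became 1, 1, 0 and 1. Without Yap HET replicate 2 they were 4, with Itga10 and Itgb4 added, and without Yap KO replicate 1 they were 3, with Pxn added. With an unmoderated linear model, Itgav and Itga9 were the 2 members that passed.

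The promoter sequences of genes that rose together are shown so that a reader can see what they share. A RefSeq promoter table of the build GRCm38.p6 matched 29 of the 41 members, with 35 annotated starts, and 5 of the 8 called genes. Itga6, Itgb3 and Lims2 had no entry. The bases shown are the 250 before the annotated start, 5′ to 3′ on the strand of the gene, all on the + strand. Itgav is chr2:83724147-83724396, Itgb5 is chr16:33829415-33829664, Itga9 is chr9:118711442-118711691 and Itga4 is chr2:79255176-79255425. Vcl, at chr14:20929148-20929397, is added as the member with both a TEAD motif and a CArG box. Capitals mark matches to the TEAD motif GGAATG on either strand, the AP-1 motif TGANTCA or the CArG box, the motif of serum response factor.
Itgav: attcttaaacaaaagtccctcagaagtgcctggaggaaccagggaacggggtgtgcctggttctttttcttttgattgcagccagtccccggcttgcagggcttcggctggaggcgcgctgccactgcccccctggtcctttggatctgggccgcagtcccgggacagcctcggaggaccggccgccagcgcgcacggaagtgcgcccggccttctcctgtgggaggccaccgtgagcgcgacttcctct
Itgb5: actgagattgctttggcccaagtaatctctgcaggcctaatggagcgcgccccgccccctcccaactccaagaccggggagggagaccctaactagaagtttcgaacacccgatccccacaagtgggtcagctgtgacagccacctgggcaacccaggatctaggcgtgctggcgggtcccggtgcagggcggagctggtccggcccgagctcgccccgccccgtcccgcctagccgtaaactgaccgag
Itga9: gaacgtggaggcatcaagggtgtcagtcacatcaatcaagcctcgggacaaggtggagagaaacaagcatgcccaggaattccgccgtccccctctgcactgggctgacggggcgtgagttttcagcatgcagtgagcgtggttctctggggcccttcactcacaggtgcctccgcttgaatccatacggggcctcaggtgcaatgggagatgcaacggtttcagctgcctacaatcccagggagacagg
Itga4: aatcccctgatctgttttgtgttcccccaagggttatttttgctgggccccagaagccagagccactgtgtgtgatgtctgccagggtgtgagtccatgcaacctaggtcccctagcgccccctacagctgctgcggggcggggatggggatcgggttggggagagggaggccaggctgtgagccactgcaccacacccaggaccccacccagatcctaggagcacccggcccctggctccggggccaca
Vcl: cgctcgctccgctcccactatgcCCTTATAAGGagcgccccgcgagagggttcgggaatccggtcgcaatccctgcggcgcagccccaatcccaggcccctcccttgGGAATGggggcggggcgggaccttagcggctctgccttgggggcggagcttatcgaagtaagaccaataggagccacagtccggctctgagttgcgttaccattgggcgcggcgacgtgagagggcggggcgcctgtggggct
The 4 promoters of genes that rose hold no capitals, so those motif letters are not in these windows. That says nothing of more distant elements. In Vcl the TEAD match starts 143 bases before the annotated start and the CArG box 227 bases before it. Over the 35 member promoters, 3 (8.57%) held the TEAD motif, against 12.6% of all 32851 promoters in the table. These were Itga10, Itgb1 and Vcl, none of which passed the test. For the CArG box, 3 of 35 (8.57%) held it, against 1.47% of all promoters: Fermt2, Vcl and an annotated start of Itgb6. The AP-1 motif was in 2 of 35 (5.71%) and in 6.75% of all promoters. The GC box, GGGCGG on either strand and not capitalised, was in 17 of 35 (48.6%) and in 32.7% of all promoters. Member windows had a median GC content of 60.8%, against 52.4% over all promoters. Whether this bears on the share holding a GC box was not tested. These matches are descriptions of letters and not of binding.

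The talins and kindlins, which switch integrins on, held 0 of 5 genes that passed. At an unadjusted limma p under 0.05, 2 were lower and 0 higher, against 14.4% and 13.9% of all genes tested. Tln1, the talin of most cells, read 1377, 1337 and 1322 in Yap HET and 1260.2, 1233 and 1149 in Yap KO, without overlap (-0.15 ± 0.05, limma adjusted p = 0.124). It passed with a trended prior (limma adjusted p = 0.0446). Tln2, the talin of the mature costamere, read 822, 827 and 771 against 764, 728 and 695, also without overlap (-0.15 ± 0.06, limma adjusted p = 0.144). Fermt2, the kindlin of heart muscle, read 3267, 3338 and 3213 in Yap HET and 3508, 3445 and 3445 in Yap KO. Its Yap KO values were all the higher ones, and its change of 0.08 ± 0.05 had an interval from -0.03 to 0.19. Fermt1, the kindlin of epithelia, read 87.2 to 108 over the 6 arrays, with overlapping groups (0.04 ± 0.08).

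In the complex of integrin-linked kinase, Lims2 fell, as did 4.76% of all genes tested, and the other 4 genes did not pass. Before adjustment, 1 of the 5 was higher and 2 were lower at a limma p under 0.05. Over all genes tested these shares were 13.9% and 14.4%. Lims2, the paralog of Lims1 that can replace it in the complex, read 311, 308 and 312 in Yap HET and 264, 235 and 210.0 in Yap KO. The Yap HET values are nearly equal while the Yap KO values are spread, all below them (-0.40 ± 0.08, 1.32-fold lower, limma adjusted p = 0.0248). Lims1, the broadly expressed PINCH gene, read 1402, 1438 and 1424 against 1609, 1514 and 1515. It lay higher in Yap KO on all arrays but did not pass (0.12 ± 0.05, limma adjusted p = 0.161). Parva, the parvin of most cells, read 2506, 2580.1 and 2403 in Yap HET and 2257, 2259 and 2201 in Yap KO. The groups did not overlap (-0.16 ± 0.05, limma adjusted p = 0.0914), and it passed with a stricter filter, with quantile normalization and with a trended prior. Ilk, the pseudokinase at the centre of the complex, had overlapping groups of 2614 to 2776 and 2708 to 2950.2 (0.06 ± 0.06). Parvb, also found in striated muscle, had a change of -0.06 ± 0.06.

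Among the signalling scaffolds and actin linkers, 0 of 5 passed. At an unadjusted limma p under 0.05, 1 was higher and 2 were lower, against 13.9% and 14.4% of all genes tested. Pxn, which encodes the scaffold paxillin, read 758, 766 and 780.4 in Yap HET and 722, 639.9 and 645 in Yap KO. The groups did not overlap (-0.20 ± 0.06, limma adjusted p = 0.0779). It passed without Yap KO replicate 1, with the stricter filter and with a trended prior. Bcar1, which encodes p130Cas, a scaffold phosphorylated under stretch, read 1138, 1118 and 1038 against 1215, 1265 and 1206 (0.16 ± 0.06, limma adjusted p = 0.105), and passed with a trended prior. Vcl, the gene of vinculin, read 2585, 2565 and 2631 in Yap HET and 2399.5, 2350.1 and 2303 in Yap KO. It lay lower on every Yap KO array but its change of -0.14 ± 0.05 did not pass (limma adjusted p = 0.0981), and it passed with a trended prior (0.0147). Zyx, the gene of the mechanosensitive LIM protein zyxin, read 2083, 1959 and 1985 against 2047, 1977 and 2021. Its difference was 0.005 ± 0.05, with an interval from -0.11 to 0.12. Tns1, the gene of tensin, has 6 probe sets. The one used had a change of 0.03 ± 0.06, and the others lay between -0.26 and 0.04, none of them past the threshold when every probe set was tested.

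**Figure D3:**
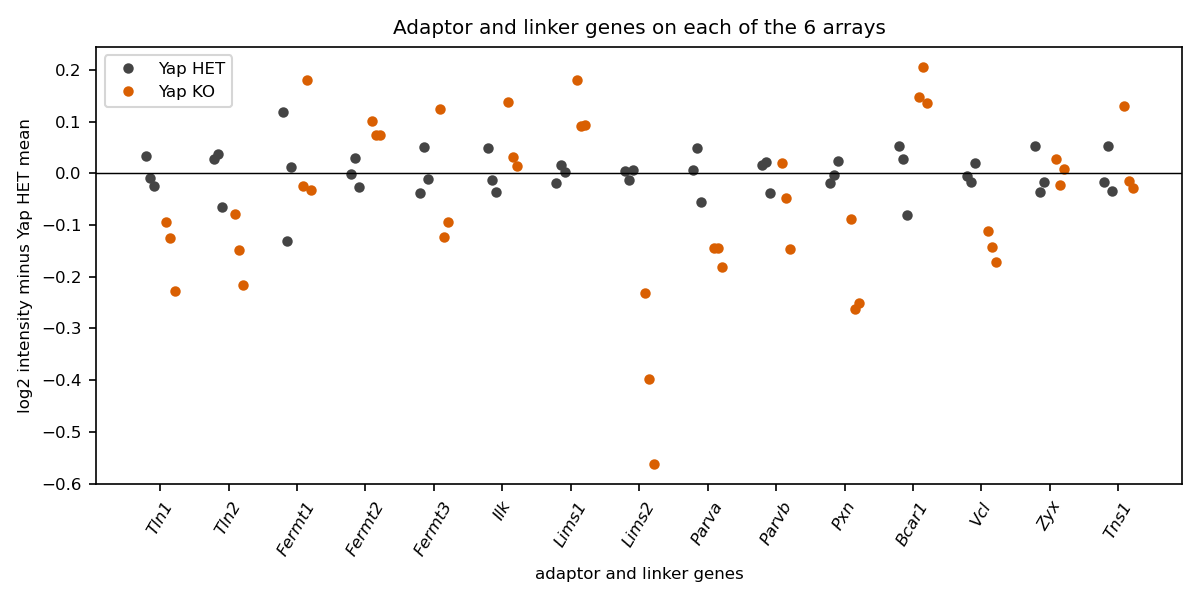
Log2 intensity of the 15 adaptor and linker genes on each array, relative to the gene's Yap HET mean (vertical axis), with Yap HET in grey and Yap KO in orange. Lims2 in Yap KO reaches furthest below 0, whereas Zyx, Ilk, Tns1 and Parvb have overlapping groups.

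Transcripts of the proteins that integrins bind changed in both directions. Of 41 matrix ligand genes tested, from a list of fibronectin, laminins, collagens and matricellular proteins, 4 rose and 6 fell, 24.4% against 9.93% of all genes. The median was 0.10, and 17 were higher and 7 lower at an unadjusted limma p under 0.05, 41.5% and 17.1% against 13.9% and 14.4% of all genes. This list, like the members and the other lists, was chosen with earlier results of these data known. Such shares therefore describe the lists and test nothing. Tnc, which encodes tenascin-C, a ligand of alpha9 and alpha-v integrins, read 809, 885 and 677 in Yap HET and 1333, 1606 and 1256 in Yap KO. The groups lay far apart (0.82 ± 0.12, 1.77-fold, limma adjusted p = 0.00743). Postn, the gene of the alpha-v ligand periostin, read 1213, 922 and 1024 against 1469.5, 1885 and 1862 (0.72 ± 0.13, limma adjusted p = 0.0137). Nid1, a basement membrane linker, rose by 0.53 ± 0.09, and Col6a1, a beaded-filament collagen chain, by 0.45 ± 0.05.

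The ligand genes that fell encode ligands of several integrins, alpha-v among them. Ccn1, a matricellular ligand of alpha-v and alpha6 integrins and a known YAP target, read 2284, 2497 and 2293 in Yap HET and 1703, 1468 and 1236 in Yap KO (-0.69 ± 0.11). Ccn2, also on the ligand list, had overlapping groups and did not pass (-0.14 ± 0.10, limma adjusted p = 0.412). Npnt, the gene of nephronectin, the alpha8 ligand, read 1245, 1182 and 1187 against 873, 1001 and 975 (-0.35 ± 0.06). Vcam1, the counter-receptor of alpha4 integrin, read 1523, 1592 and 1512 against 1314, 1326 and 1344 (-0.22 ± 0.05). The laminin chain genes Lama3 and Lama1 had changes of -0.35 ± 0.07 and -0.24 ± 0.06. Egfl6, a matrix protein with an RGD motif, is counted among the 6 but passed the filter only through its Yap HET values. It read 108 to 153 in Yap HET and 52.4 to 80.4 in Yap KO, under the filter level, so no size of change is given. Fn1, the gene of fibronectin, read 3262, 3282 and 3093 in Yap HET and 3547, 3509 and 3754 in Yap KO. It was higher on every Yap KO array without passing (0.17 ± 0.05, limma adjusted p = 0.0913). With each array centred on its median, 6 ligand genes were higher and 4 lower. Without Yap KO replicate 1 the 4 rises became 8. Of the 6 falls, 2 were left when Yap HET replicate 1 was dropped and 3 when any Yap KO array was. Vcam1 missed the threshold whichever of the 6 arrays was left out, with adjusted p between 0.0574 and 0.119, and Lama1 and Lama3 each missed it in 5 of 6. Npnt missed it without Yap HET replicate 1 (adjusted p = 0.078). Postn and Nid1 each lost their call without 1 array, Postn without Yap KO replicate 2 (adjusted p = 0.0609) and Nid1 without Yap HET replicate 1 (adjusted p = 0.0512).

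**Figure D4:**
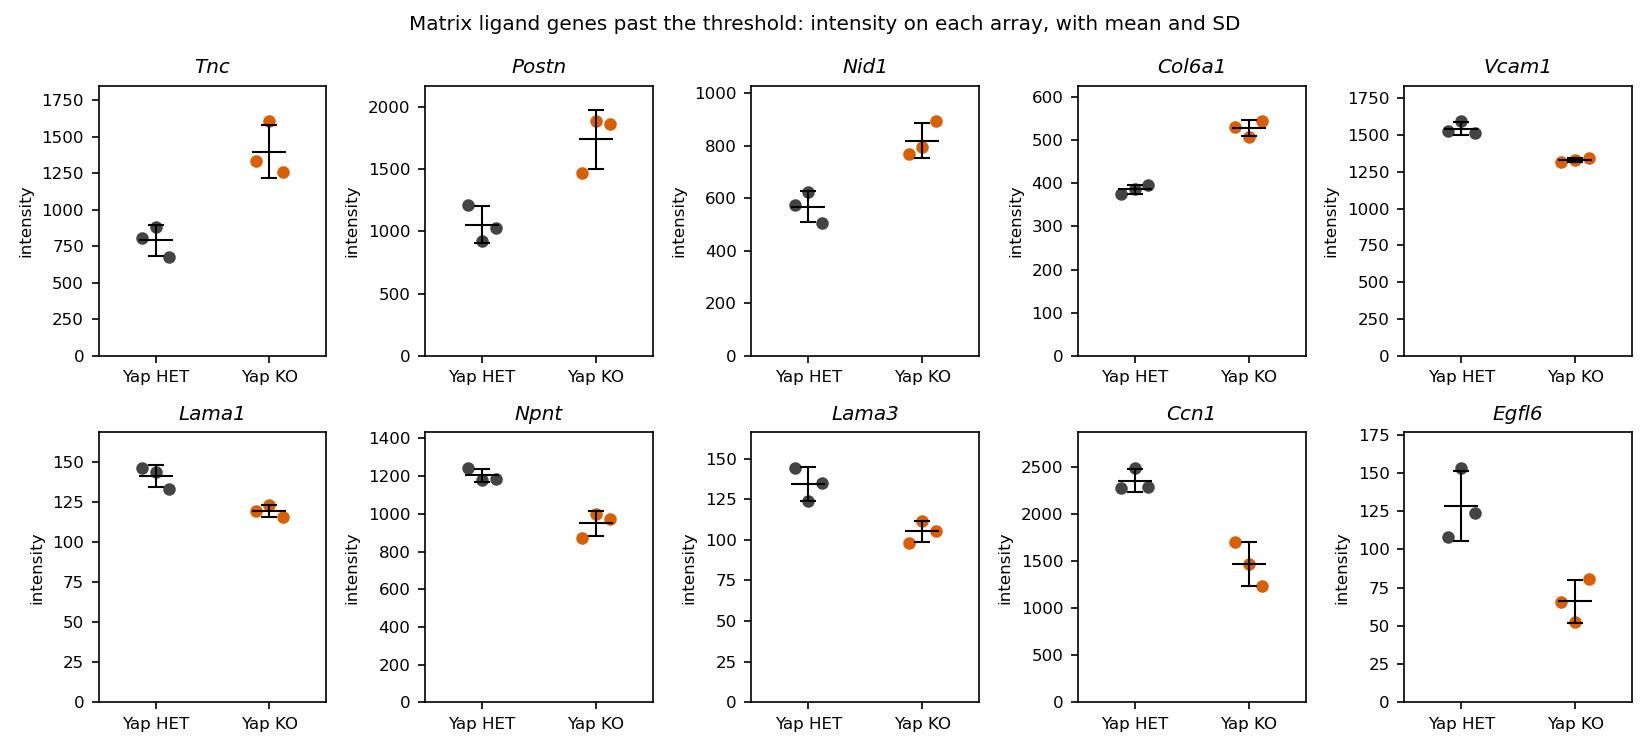
Intensity (linear scale from 0) of the 10 matrix ligand genes past the threshold on each array, as points, with the group mean and SD. Tnc, Postn, Nid1 and Col6a1 are higher in Yap KO, and the other 6 are lower.

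Other adhesion plaque genes outside the member list were called no more often than the background. Of 54 tested, 2 rose and 2 fell, 7.41% against 9.93% of all genes. The LIM protein gene Tes rose by 0.47 ± 0.06 and the Src-family kinase gene Fyn by 0.26 ± 0.07. Ajuba, another LIM protein of adhesions and of Hippo signalling, fell by 0.61 ± 0.10 on the log2 scale, and the alpha-actinin gene Actn4 by 0.23 ± 0.05. Flna, the gene of the integrin-binding actin crosslinker filamin A, had a change of 0.18 ± 0.05 (limma adjusted p = 0.055). The 2 rises and 2 falls became 5 and 1 with each array centred on its median, and 4 and 2 with quantile normalization. Tes alone of the rises remained without Yap HET replicate 1 or 3 or without any Yap KO array. Ajuba alone of the falls remained when Yap HET replicate 3 or Yap KO replicate 2 or 3 was dropped, and neither did when Yap HET replicate 1 was.

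In the costamere, 22 genes were tested, Vcl among them, with 2 rises and 2 falls, 18.2% against 9.93% of all genes, and a median of 0.03. Itgb1bp2, which encodes melusin, a muscle protein that binds the beta1 tail, read 765, 886 and 792 in Yap HET and 1085, 1044 and 990.0 in Yap KO (0.35 ± 0.07, limma adjusted p = 0.0212). Sspn, the gene of sarcospan, rose by 0.24 ± 0.06. Dtna, the gene of alpha-dystrobrevin, read 427, 451 and 414 against 333, 299 and 330.4 (-0.43 ± 0.06, limma adjusted p = 0.00812), and the syntrophin gene Sntb1 fell by 0.34 ± 0.06. Dag1, the gene of dystroglycan, the other laminin receptor of muscle, had overlapping groups (-0.01 ± 0.05, interval -0.13 to 0.12). The 2 rises became 0 when Yap HET replicate 1 or 3 or Yap KO replicate 1 or 2 was dropped, and 1, Itgb1bp2, when either other array was. Dtna alone of the 2 falls remained when Yap HET replicate 1 was dropped, and likewise Yap KO replicate 2.

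**Figure D5:**
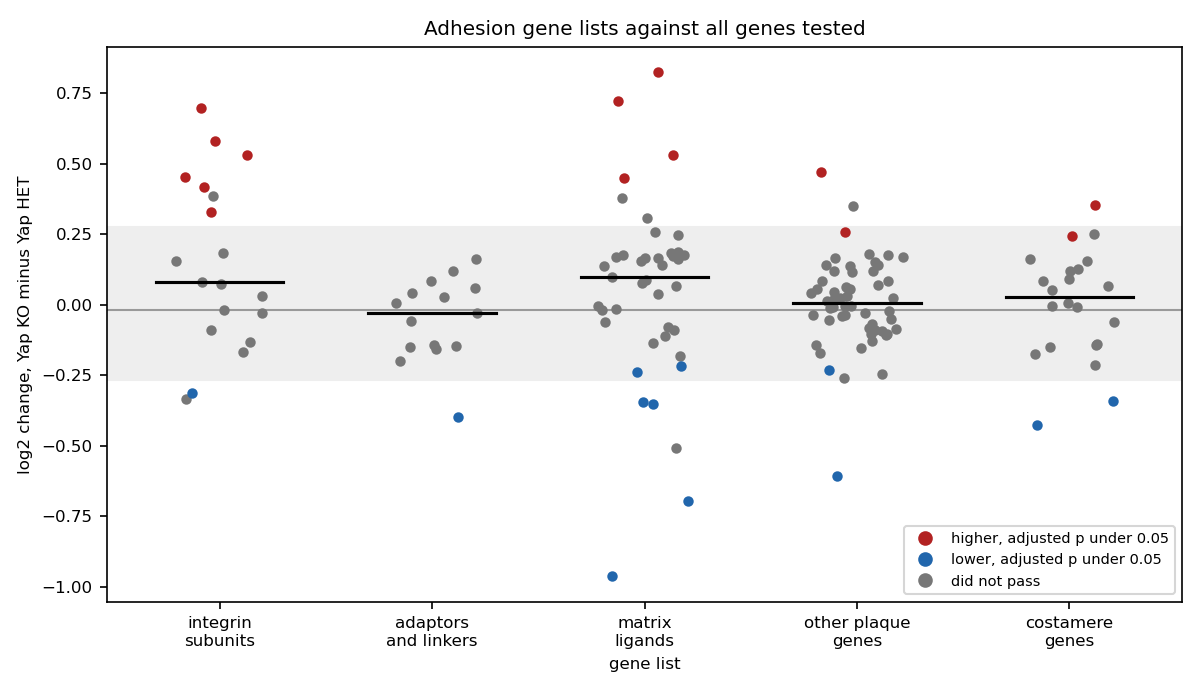
Log2 change (Yap KO minus Yap HET, vertical axis) of each gene tested in 5 adhesion lists, with list medians as black bars; the grey band holds the central range of all genes tested, from the 5th percentile at -0.27 to the 95th at 0.28, and the grey line their median. Integrin subunits, matrix ligands, other plaque genes and costamere genes have points past the band on both sides, and the adaptors have 1, Lims2, below it.

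Markers of some other cell types moved with the same comparison, and their part in the integrin changes was not tested. Of all genes tested, 5.16% rose and 4.76% fell, and 13.9% were higher and 14.4% lower at an unadjusted limma p under 0.05. Of 11 mesenchymal, fibroblast and pericyte markers tested, 3 rose, Pdgfra, Pdgfrb and Postn, and 0 fell, with 7 higher and 0 lower at an unadjusted limma p under 0.05. Their summed intensity, over all 12, was 5483 to 5794 in Yap HET and 6528 to 8657 in Yap KO. Postn, Col1a1, Col1a2 and Col3a1 were also counted as matrix ligand genes. Pdgfra, a receptor of cardiac mesenchyme, read 315, 397 and 363 against 659.6, 680.5 and 777. Of 10 endothelial and endocardial markers tested, 3 rose, Kdr, Eng and Nfatc1, and 0 fell, with 5 higher and 0 lower at an unadjusted limma p under 0.05. Their sum over 12 markers was 1817 to 1934 in Yap HET and 2182 to 2324.5 in Yap KO, Erg and Tie1 were under the filter, and Pecam1 had means of 82.5 and 90.6. Of 8 epicardial markers Tcf21 rose by 0.93 ± 0.17 and 0 fell, and before adjustment 1 was higher and 4 were lower at a limma p under 0.05. These 4, Upk3b (-0.68), Tbx18 (-0.37), Msln (-0.30) and Krt19 (-0.23), had all Yap KO values below all Yap HET values. The epicardial sums overlapped, at 3652 to 4361 in Yap HET and 2657 to 3783 in Yap KO. Of 12 macrophage and leukocyte markers, 7 were under the filter, among them Adgre1 and the C1q genes, and 5 were tested. Lyz2 rose and 0 fell, with 1 higher and 3 lower at an unadjusted limma p under 0.05 and a median log2 change of -0.17. The 3 lower ones, Cd68 (-0.72), Csf1r (-0.21) and Ptprc (-0.17), had groups that did not overlap, and the sums overlapped (2012 to 2277 and 2053 to 2246). Of 6 smooth muscle markers, 0 passed, with 1 higher and 1 lower at an unadjusted limma p under 0.05, and the sums overlapped (14638 to 15165 and 13178 to 14898). Of the platelet markers on the array, Pf4 and Ppbp were under the filter. The platelet sums, which include the member Itga2b, were 254 to 267 in Yap HET and 227 to 331 in Yap KO. Erythroid marker sums overlapped, at 540.4 to 931 in Yap HET and 662 to 2834 in Yap KO. Among the 6 erythroid markers tested, 0 passed. Before adjustment, Hbb-y alone had a limma p under 0.05, and it was higher. It read 232, 27.1 and 19.8 in Yap HET and 1295, 450 and 86.3 in Yap KO. The groups overlapped (limma adjusted p = 0.145). Yap HET replicates 2 and 3 lay under the filter level. Hbb-y passed the filter, which was set on the mean log2 value, only through its Yap KO values, so no size of change is given. Hba-x read 32.1 to 166 in Yap HET and 73.4 to 822 in Yap KO, also without passing. Neuronal and neural crest sums overlapped too, at 688 to 779.8 and 692 to 745. The erythroid sum of 2834 was that of Yap KO replicate 1, the array with the highest Pf4 and Ppbp readings as well.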

How the data were processed

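The authors deposited 1 table of probe set intensities for 6 arrays, on a linear scale. RMA is named, without a version, per the submitters' processing notes. The sources used here do not state how RMA values came to be linear, or any detection filter. Log2 was taken of each intensity. Gene names came from the platform's annotation (21789 of 35556 with 1 symbol, 1621 with several, 12146 with none), and symbols were updated through a RefSeq table of GRCm38.p6, which matched 21698. The probe set with the highest mean log2 value stood for each of 19938 genes, and genes under the 40th percentile of probe set means (intensity 85.7) were left out. The 13632 others were fitted in limma 3.58.1 (lmFit and eBayes, R 4.3.3) with group as the only term, Benjamini-Hochberg adjustment and a threshold of 0.05. Intervals are at 95%. The fit was tested on simulated data. p-values measure the spread between these arrays. The members and lists were chosen with earlier results of these data known. The rule for named genes gave every array's value for members past the threshold. The same was given for Itgb1, the brightest alpha subunit of each ligand class and the main plaque genes. All genes past the threshold in the other lists were named. Fn1, Ccn2, Flna, Dag1, Pecam1, Hbb-y and the genes of the closing section were named after their values were seen. Alternatives were 2 other filters, averaging all probe sets of a gene, quantile normalization, median centring, a pseudocount of 16, a trended robust prior, the replicate block, an unmoderated model and each array left out. Near-identical genes can cross-hybridise.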

Additional observations from a re-analysis of the deposited data

How the results depend on the processing

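Counts are given as higher and lower in Yap KO, against 6 and 2 members, 4 and 6 matrix ligand genes, 2 and 2 other plaque genes and 2 and 2 costamere genes. With an unmoderated linear model they were 2 and 0 members, 1 and 0 ligand genes, 0 and 0 plaque genes and 0 and 0 costamere genes. Without a filter, 1 member, 2 ligand genes, 1 plaque gene and 1 costamere gene were lower, and 1 plaque gene and 0 costamere genes higher. With the 60th percentile filter, 4 members were lower, and 8 ligand and 7 plaque genes higher. With a trended robust prior, 6 members were lower, 10 ligand genes higher, and plaque and costamere genes stood at 7 and 5 and at 4 and 5. Quantile normalization gave 4 plaque genes higher, and median centring 5 higher and 1 lower; the cause of these shifts was not tested. Leaving out each array in turn gave 3 to 6 members higher and 0 to 4 lower, 3 to 8 and 2 to 4 ligand genes, 1 to 3 and 0 to 2 plaque genes, and 0 to 1 and 1 to 3 costamere genes. Of all called genes, 52.0% were higher, and 75.7% after median centring, which moved the median change of all genes from -0.02 to 0.04. No member reversed its sign while called. The replicate number as a block left the member counts at 6 and 2, gave 2 ligand genes lower, 1 plaque gene higher, 1 lower and 1 costamere gene higher, and cut the calls over all genes from 1353 to 698. Same-numbered arrays shared only a number: their deviations from the group means correlated at -0.08, -0.17 and 0.12, and 1 of 6 arrays correlated best with its own number. Depth has no counterpart here; signal near the filter level limits Itga10, Itga2, Itga2b and Fermt3.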

Other observations

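Genes of the latent TGF-beta system, to which alpha-v integrins bind, lie outside the lists above. They were picked with their values known. Ltbp4 and Ltbp1, which encode latent TGF-beta binding proteins that anchor the growth factor in the matrix, had mean intensities of 293 ± 13.4 (SD, n = 3) and 1581 ± 26.1 in Yap HET and 478 ± 31.7 and 2118 ± 101 in Yap KO. These were log2 changes of 0.71 ± 0.07 (SE, limma adjusted p = 0.00184) and 0.42 ± 0.05 (limma adjusted p = 0.0049). Ltbp3 (-0.03 ± 0.05) and Ltbp2 (-0.09 ± 0.06) did not pass. Of the ligand genes, Tgfb1 rose, while Tgfb2 (0.08 ± 0.06) and Tgfb3 (0.23 ± 0.08, limma adjusted p = 0.114) did not pass. Edil3, which encodes a secreted RGD protein that binds alpha-v integrins, rose by 0.81 ± 0.10. Cd47, an integrin-associated membrane protein, rose by 0.27 ± 0.05, and Sdc4, the syndecan that joins integrins in focal adhesions, by 0.29 ± 0.06. Genes with integrin-like names that are not subunits, Itgb1bp1 (0.14 ± 0.09) and Itgb3bp (-0.09 ± 0.14), did not pass, and Itgbl1 was under the filter.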
